A study of Mus musculus with 8 samples.

Results

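The imprinted Igf2r cluster on mouse chromosome 17 holds Igf2r, Slc22a2 and Slc22a3, the 3 member genes described here. The region was selected on the peak counts and scores of these same lists, and its members were the peaks that lay over these genes or within chr17:12500001-13100000 on mm9, a stretch of 600 kb. In this way 48 of 75040 H3.3 peaks were taken, and 3 of 22367 protein-coding genes were members. Because the H3.3 peaks chose the region, their number, position, width and score are given as a description and without a test.

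Imprinted genes are expressed mainly from the maternal or mainly from the paternal copy. In this cluster the long non-coding RNA Airn is known to be transcribed from the paternal copy, from a CpG-rich control element inside Igf2r and in the opposite direction to it, and it silences Igf2r, Slc22a2 and Slc22a3 on that copy in cis, the Slc22a genes mainly in extraembryonic tissue. Igf2r encodes the receptor that carries mannose 6-phosphate tagged enzymes to lysosomes and that binds and clears the growth factor IGF2, while Slc22a2 and Slc22a3 encode organic cation transporters. H3.3 is the histone H3 variant deposited outside of replication, and HIRA is one of the chaperones that deposit it.

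H3.3 carrying an HA tag was mapped by native ChIP-seq with an anti-HA antibody in 4 conditions: wild type (WT, W9.5) and Hira-null (Clone 104) mouse embryonic stem cells (mESCs) at day 0, and both lines at day 15 of differentiation towards cardiomyocytes. Differentiation began with hanging-drop embryoid bodies, which were later plated on gelatin-coated dishes. All groups carry the tag, the Hira-null line is 1 clone, and each condition has 1 ChIP and 1 input library among 8 samples, so no difference below has a replicate error and none was tested. Differentiated cultures are mixed, so fewer cells with H3.3 at a site and less H3.3 per cell cannot be told apart, and the 2 parental copies were not separated. One peak list per condition was used, in which each peak has a score that grows as its p-value falls, and the lowest score in each list was 50. The lists held 22730 peaks in WT day 0, 17706 in Hira-null day 0, 27272 in WT day 15 and 7332 in the Hira-null day 15 list, and read depth is unknown. At 5 pluripotency genes, including Nanog and Esrrb, a peak was listed for 5 genes in WT day 0, 3 in Hira-null day 0 and 1 in each day 15 list, while 5 cardiac genes, including Myh6, Tnnt2 and Nkx2-5, had 0 peaks in each of the 4 lists. Peak lists therefore do not show the cardiac label of the day 15 samples at these genes.

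Sequences of mm9 at the sites on which the description turns are given next, each 300 bp long and written 5′ to 3′. The first is the Airn start site, chr17:12933927-12934226 on the plus strand, with 250 bases before and 50 after the start, and capitals mark its 3 CpG sites. The next is a stretch at chr17:12935056-12935355 on the plus strand, inside the first intron of Airn and intron 2 of Igf2r, where a Hira-null peak was listed at both days. Capitals there mark TGCCGC, a motif repeated in this element, or its reverse complement GCGGCA, which occurred 3 times among 26 CpG sites. The third is the Igf2r start site, chr17:12962481-12962780 on the minus strand, with its 33 CpG sites in capitals, to which no list assigned a peak. The fourth, chr17:12981997-12982296 on the plus strand, is the centre of the highest-scoring peak of the region, in Hira-null day 15, and the last, chr17:12818290-12818589 on the plus strand, is the centre of a Hira-null day 0 peak in Slc22a2. In both of these, capitals mark CpG, which occurred 2 times and 1 time.
Airn start: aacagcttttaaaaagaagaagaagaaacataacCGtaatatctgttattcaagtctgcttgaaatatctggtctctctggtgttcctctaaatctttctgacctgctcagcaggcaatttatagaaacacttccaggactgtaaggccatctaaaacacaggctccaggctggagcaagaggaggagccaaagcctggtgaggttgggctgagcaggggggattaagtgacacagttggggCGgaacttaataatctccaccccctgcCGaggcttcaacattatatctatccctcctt
Airn motif repeats: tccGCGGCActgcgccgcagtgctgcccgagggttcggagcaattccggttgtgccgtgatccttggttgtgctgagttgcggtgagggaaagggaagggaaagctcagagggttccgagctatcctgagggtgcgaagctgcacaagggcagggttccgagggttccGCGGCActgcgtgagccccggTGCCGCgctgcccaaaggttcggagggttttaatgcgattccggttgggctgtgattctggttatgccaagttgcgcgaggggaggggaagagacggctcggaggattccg
Igf2r start: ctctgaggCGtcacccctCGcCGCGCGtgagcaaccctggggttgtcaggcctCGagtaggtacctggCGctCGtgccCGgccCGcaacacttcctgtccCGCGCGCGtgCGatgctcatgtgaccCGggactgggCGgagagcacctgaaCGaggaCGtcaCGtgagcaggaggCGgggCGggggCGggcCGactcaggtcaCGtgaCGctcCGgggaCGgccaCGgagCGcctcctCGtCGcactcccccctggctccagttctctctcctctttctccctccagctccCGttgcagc
Strongest Hira-null day 15 peak: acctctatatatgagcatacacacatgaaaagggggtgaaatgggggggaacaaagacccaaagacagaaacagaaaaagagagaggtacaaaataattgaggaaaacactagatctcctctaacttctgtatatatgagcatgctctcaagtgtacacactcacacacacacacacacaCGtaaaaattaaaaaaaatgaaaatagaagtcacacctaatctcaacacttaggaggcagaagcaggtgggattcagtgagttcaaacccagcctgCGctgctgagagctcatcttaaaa
Hira-null peak in Slc22a2: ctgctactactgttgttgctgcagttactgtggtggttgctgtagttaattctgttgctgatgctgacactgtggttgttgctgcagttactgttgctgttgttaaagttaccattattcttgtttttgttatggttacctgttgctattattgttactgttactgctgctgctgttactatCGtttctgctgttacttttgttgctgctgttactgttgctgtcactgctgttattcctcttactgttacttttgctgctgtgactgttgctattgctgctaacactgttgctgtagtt

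Across the 600 kb region, 3 peaks were listed in WT day 0, 3 in Hira-null day 0, 11 in WT day 15 and 31 in the Hira-null day 15 list. The shortest list thus held the most peaks here. Peaks covered 3.14 kb of the region in WT day 0, 5.47 kb in Hira-null day 0, 9.5 kb in WT day 15 and 43.1 kb, or 7.18% of the region, in Hira-null day 15. Relative to the genome-wide density of the same list, the region had 0.584 times as many peaks per Mb in WT day 0, 0.75 times in Hira-null day 0, 1.78 times in WT day 15 and 18.7 times in the Hira-null day 15 list (51.7 against 2.76 peaks per Mb). Chromosome 17 as a whole had 4.17 peaks per Mb in Hira-null day 15 and the other autosomes 2.87, so the region had 12.4 times the density of its own chromosome.

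**Figure D1:**
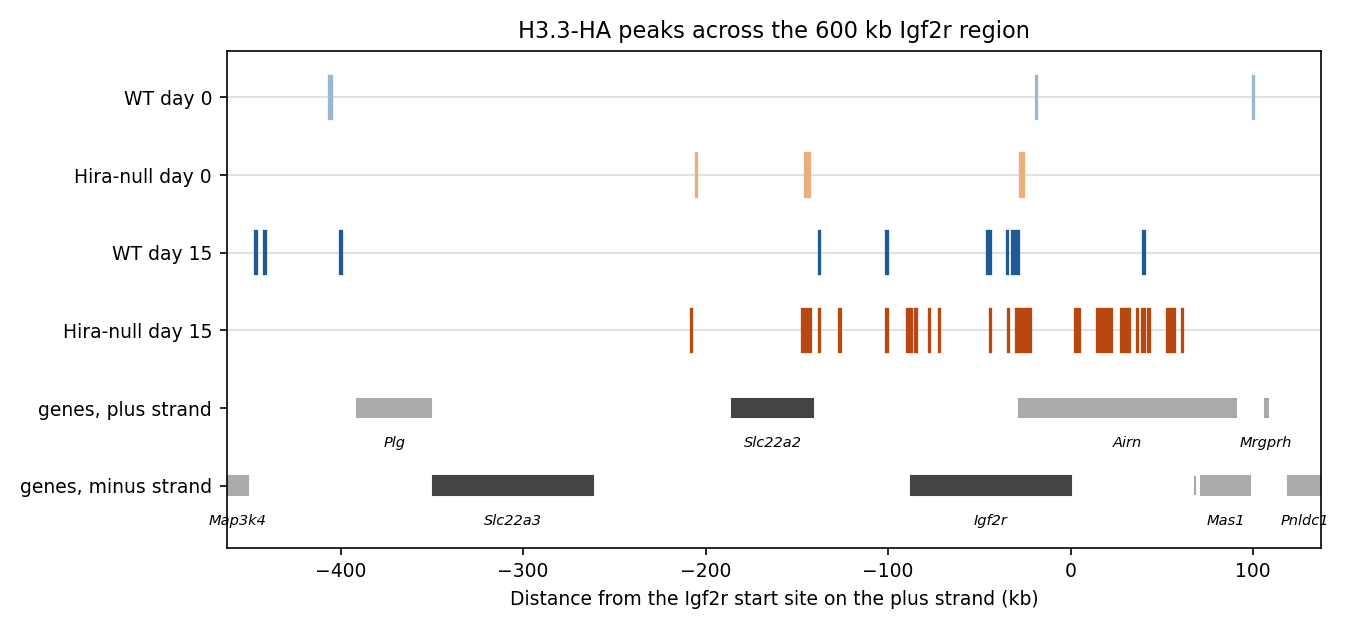
Peaks of the 4 lists (coloured bars, drawn with an outline that widens the narrowest) and annotated genes (dark, the 3 members; grey, some of the other genes) against the distance in kb from the Igf2r start site along the plus strand. The 31 Hira-null day 15 peaks lie mostly between Slc22a2 and the middle of Airn, and no peak of any list lies over Slc22a3.

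At day 0 the median score of the region's peaks was 56.17 in WT and 124.39 in Hira-null cells, where the complete lists had medians of 80.32 and 122.17. The 3 WT day 0 peaks scored 55.69, 56.17 and 102.25, and the 3 Hira-null day 0 peaks scored 124.32, 124.39 and 176. At day 15 the WT scores ran from 50.7 over a median of 69.47 to 154.52, below the list median of 86.66. The Hira-null day 15 scores ran from 50.25 over a median of 135.14 to 1376.76, above the list median of 91.655. In the region 16 of these 31 peaks scored at least 100, as did 45% of the complete list, and 5 were wider than 2 kb. The 5 wide peaks were also the 5 with the highest scores, from 480.7 up, while the narrower peaks reached at most 327.68. Together they made up 18.7 kb, or 43.5% of the covered length, and none of the 5 overlapped a WT day 15 peak.

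**Figure D2:**
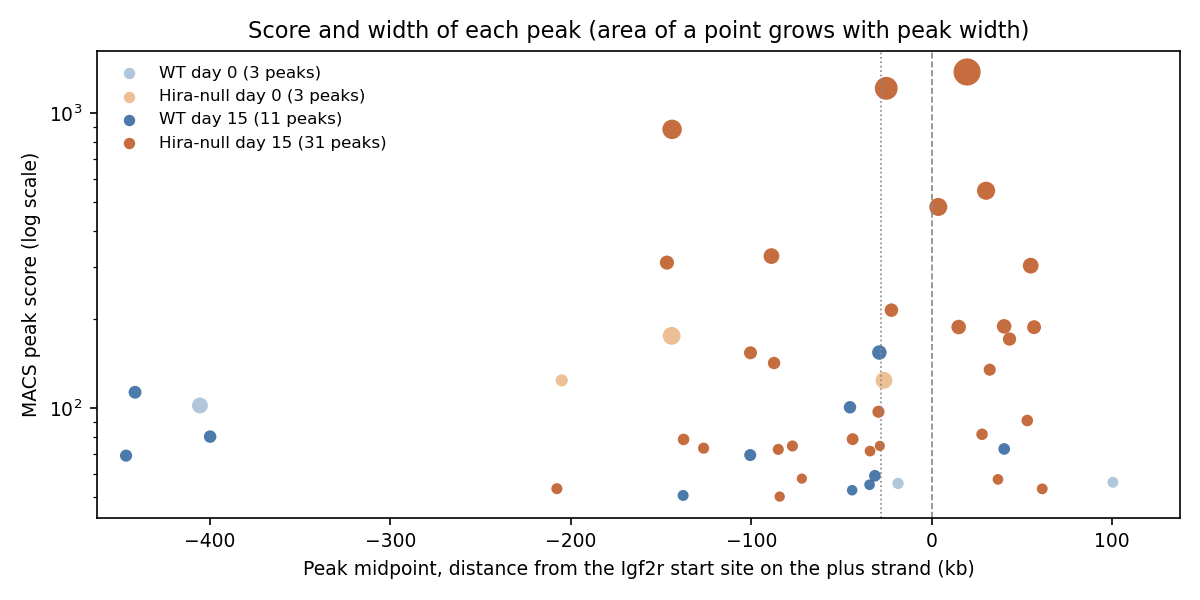
MACS score of each peak (log axis) against the distance of its midpoint from the Igf2r start site in kb, coloured by list, with a point area that grows with peak width. The dashed line marks the Igf2r start and the dotted line the Airn start, and the 3 highest points, at 880.24, 1212.1 and 1376.76, are wide Hira-null day 15 peaks.

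When the autosomes and X were divided into 4371 windows of 600 kb, the Igf2r window came first in the number of Hira-null day 15 peaks and was the one window with at least 31 (0.0229% of windows). The median window had 1 such peak. By covered length it ranked 4 in that list. The same window ranked 738 in WT day 15, 1899 in WT day 0 and 1976 in the Hira-null day 0 list. It held 20 more peaks in Hira-null than in WT cells at day 15, where 15.6% of all windows held more Hira-null peaks, and this difference ranked 1. At day 0 the difference was 0, against 42.9% of windows with more Hira-null peaks. These ranks describe a window that had been picked for its peaks.

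**Figure D3:**
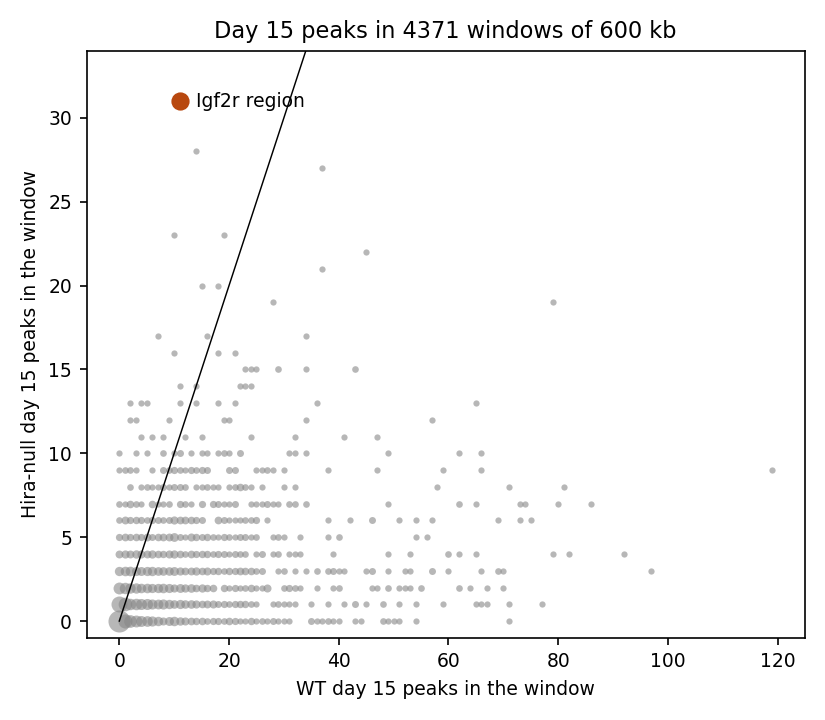
Number of Hira-null day 15 peaks against WT day 15 peaks in each of 4371 windows of 600 kb, where the area of a grey point grows with the number of windows at that place and the line marks equal counts. The Igf2r window lies above the line with 31 Hira-null and 11 WT peaks.

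Igf2r (ENSMUSG00000023830.7, chr17:12875272-12962530, minus strand, 48 exons over 87.3 kb) had 1 peak in WT day 0, 1 in Hira-null day 0, 5 in WT day 15 and 12 in the Hira-null day 15 list. Peaks were counted from 10 kb upstream of the start site to 200 bp past the gene end. Among all coding genes, 33.6% had at least 1 such peak in WT day 0, 18.9% in Hira-null day 0, 37.1% in WT day 15 and 13.3% in the Hira-null day 15 list, and 4.94% had more peaks in Hira-null than in WT day 15. Peaks covered 4.43% of the Igf2r window in WT day 15 and 14.1% in the Hira-null day 15 list. By number of Hira-null day 15 peaks Igf2r ranked 3 among 2977 genes with a peak, and 6 genes (0.0268% of coding genes) had at least 12. The 2 genes above it, Gm20388 and Fgfr2, have gene models of several Mb in this annotation. In WT day 15 Igf2r ranked 999.

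In WT day 15 the 5 Igf2r peaks formed 1 group of 17.5 kb, from intron 10 to the start of Airn. They scored 100.83 in intron 10, 52.81 in intron 9, 55.12 in intron 5, 59.1 in intron 4 and 154.52 in intron 2. The last of these, at chr17:12932807-12934271, extended over the Airn start site. The Hira-null day 15 list had overlapping peaks in intron 9, with a score of 78.65, and in intron 5, with 71.67. Before the Airn start a pair of narrow Hira-null peaks, in introns 3 and 2, scored 97.37 and 74.62. The WT peaks in introns 10 and 4 had no Hira-null day 15 peak over them.

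The Hira-null day 15 peaks added 2 further groups in the Igf2r body. Towards the 3′ end, 5 peaks lay between the last exon and intron 34, with scores of 142.36, 72.6, 50.25, 74.57 and 57.82, and the first of these spanned the annotated end of the gene. Just past that end lay a peak of 1812 bp with a score of 327.68, at chr17:12872824-12874635. A gap of 27.5 kb without a peak separated intron 34 from intron 9. In intron 2, a peak of 4339 bp and a score of 1212.1 at chr17:12935187-12939525 was followed by one of 1212 bp and a score of 215.02. No WT day 15 peak overlapped either.

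No peak midpoint fell in an exon of Igf2r in any list, and 6 of the 11 Hira-null day 15 peaks that touched the gene body also touched an exon, against 2 of 5 in WT day 15. The share of the gene length in exons is not given here, so these counts have no background. The Igf2r start site itself, a CpG-rich promoter, was free of peaks within 1 kb in each of the 4 lists. The nearest peak lay 18.3 kb away in WT day 0, 25.4 kb in Hira-null day 0, 28.3 kb in WT day 15 and 2.41 kb in the Hira-null day 15 list. That nearest Hira-null peak, at chr17:12964936-12967456, lay upstream of Igf2r with a score of 480.7. Of all coding genes, 8.56%, 1.28%, 12.6% and 0.921% had a peak within 1 kb of the start site in the same order of lists.

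Slc22a2 (chr17:12777055-12821331, plus strand) had 0 peaks in WT at either day, 1 in Hira-null day 0 and 2 in Hira-null day 15. The day 0 peak, at chr17:12817204-12819675 in intron 10, scored 176, and the Hira-null day 15 peak at chr17:12817172-12820186 covered its whole length with a score of 880.24. Its neighbour in the same intron, at chr17:12815140-12816500, scored 311.47. All 3 lay in the last intron, and none touched an exon. The printed centre of the day 0 peak varies little in sequence. It held 82 distinct words of 4 bases, and 3.85% of the Hira-null day 0 peaks had fewer at their centre (list median 156). The centre of the day 15 peak over it also held 82, and 16.9% of the Hira-null day 15 peaks had fewer.

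Slc22a3 (chr17:12612838-12700570, minus strand) had 0 peaks in each of the 4 lists. The nearest peak lay 143 kb from its start site in WT day 0, 56.5 kb in Hira-null day 0, 124 kb in WT day 15 and 53.9 kb in the Hira-null day 15 list. The interval from the Plg start to the Slc22a3 start, 129 kb long, was empty in all lists. A single Hira-null peak per day lay between Slc22a3 and Slc22a2, with a score of 124.32 at day 0 and 53.46 at day 15, and the day 0 and day 15 peaks did not overlap.

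Airn (119 kb, plus strand, start site 28.4 kb inside Igf2r in its intron 2) had 1 peak in WT day 0, 1 in Hira-null day 0, 4 in WT day 15 and 18 in the Hira-null day 15 list. Its window shares 28.4 kb of gene body with Igf2r, so some peaks count for both. Over the 90.5 kb of Airn past the Igf2r start, peaks of Hira-null day 15 covered 22.2 kb (24.5%) with 13 peaks, whereas WT day 15 had 1 peak of 0.78 kb and both day 0 lists had 0. These 13 peaks formed a domain of 59.2 kb when peaks up to 12 kb apart were joined, and it ranked 5 by number of peaks among 5420 domains of that list. Within it, the highest score was 1376.76 at chr17:12978988-12985305, a peak of 6318 bp that lay 48 kb from the Airn start and ranked 75 by score and 44 by width among 7332 peaks. Next came 545.51 at chr17:12991400-12993953 and 480.7 at the edge near Igf2r, while the weakest, at 53.38, was the last towards the Airn end. The final 28.9 kb of Airn had no Hira-null day 15 peak.

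Around the Airn start, the day 15 lists shared peaks before the start and differed past it. The 1.5 kb past the start held 95 CpG sites, with 25 to 39 per 500 bp, against a median of 4 and at most 12 in the other 45 bins within 12 kb. The WT day 15 peak at the start ended 95 bp into this stretch, and the pair of Hira-null day 15 peaks in introns 3 and 2 overlapped it before the start. Both Hira-null lists had a peak that began further in, 0.872 kb past the start at day 0 and 1.01 kb past it at day 15, and covered 628 bp and 490 bp of the 1.5 kb. The WT day 0 list had none there, and its 1 Igf2r peak, with a score of 55.69, lay 9.38 kb past the Airn start. Of 8 TGCCGC motifs (both strands) within 3 kb past the start, 4 lay in the Hira-null day 0 peak, 3 in the Hira-null day 15 peak and 0 in a WT peak. A match is a description of sequence and does not show a bound factor.

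**Figure D4:**
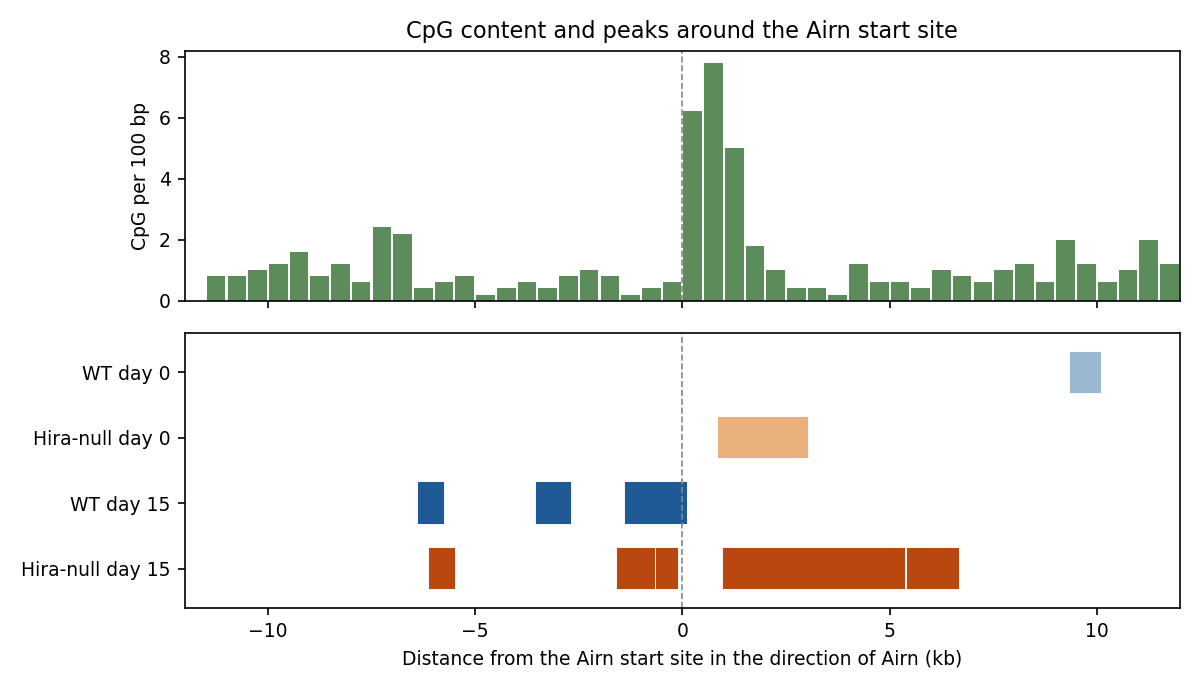
Upper panel, CpG sites per 100 bp in bins of 500 bp within 12 kb of the Airn start site. Lower panel, the peaks of the 4 lists over the same span: one WT day 15 peak ends at the left edge of the CpG-rich stretch, a pair of Hira-null day 15 peaks lies before it, and 1 peak of each Hira-null list begins inside it.

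Over the whole region the peaks were not CpG-rich. The median CpG content per 100 bp was 1.19 in WT day 0, 1.38 in Hira-null day 0, 0.734 in WT day 15 and 0.714 in the Hira-null day 15 list, close to the medians of the complete lists (1.09, 1.42, 0.868 and 0.751), while the region as a whole had 1.09. TGCCGC was found in 3 of the 31 Hira-null day 15 peaks (9.68%, list 6.44%) and in 0 of the 11 WT day 15 peaks (list 8.63%). At day 0 it was found in 1 of 3 peaks of each genotype, where 14.8% of the WT and 35.7% of the Hira-null list held it. Of the 300 bp promoters of coding genes 13.6% held the motif. In the Hira-null day 15 peaks the central 300 bp had a median of 146 distinct words of 4 bases, against 150 in the complete list, and in WT day 15 155 against 154. The lowest value among the region's peaks was 74 in Hira-null day 15 and 144 in WT day 15. The cut for the lowest 5% of the complete list was 37 and 137, and 0 of these region peaks lay below it. Repeats and mappability behind such low values were not tested.

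Between genotypes at day 15, 24 of the 31 Hira-null peaks (77.4%) had no WT peak over them, while 69.2% of the complete Hira-null day 15 list had none. Of the 11 WT day 15 peaks, 5 (45.5%) had no Hira-null peak, against 91.9% of the complete WT day 15 list. When scores under 100 were left out of every list, 3 of 3 WT peaks had none, and with lists of equal length 0 of 1, so this contrast depends on the peak threshold. The region was also chosen for its Hira-null day 15 peaks, so a low share of WT peaks without one is partly built in. The shared length was 3.99 kb. The 7 Hira-null peaks with a WT counterpart scored from 71.67 over a median of 78.65 to 189.51, and the 24 without one had a median of 156.985. The highest of the shared peaks, in Airn at chr17:13001937-13003408, scored 189.51 in Hira-null and 72.86 in WT cells. The WT peaks without a counterpart were the pair in introns 10 and 4 of Igf2r and 3 at the far end of the region before Plg, with scores of 69.16, 113.35 and 80.22.

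At day 0 no WT peak of the region overlapped a Hira-null peak, so 3 of 3 in each genotype stood alone, against 72.7% of the WT and 67.2% of the Hira-null list. With 3 peaks a list these shares carry little weight. Between days, 0 of the 3 WT day 0 peaks and 0 of the 11 WT day 15 peaks overlapped one of the other day, where 74.3% and 78% of the complete lists had no such overlap. In Hira-null cells 2 of the 3 day 0 peaks were met again at day 15, while 90.8% of the complete day 0 list had no day 15 peak. These were the peaks in Slc22a2 intron 10 and past the Airn start, and the second scored 124.39 at day 0 and 1212.1 at day 15, with 93.5% of the day 0 peak covered. The other 29 of 31 Hira-null day 15 peaks had no day 0 peak, against 76.5% of the list. Because the region was chosen for its Hira-null day 15 peaks, both of these Hira-null shares are partly built in. The 2 of 3 also rests on 3 peaks. Scores of different lists depend on their depth, so the differences in score are given as values only.

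The limits of the region were round numbers, and peaks lay close outside them, except after the region in Hira-null day 0. Before it, the nearest peak was 22.4 kb away with a score of 119.98 in WT day 0, 17.3 kb away with 1150.96 in Hira-null day 0, 9.03 kb away with 110.63 in WT day 15 and 16.9 kb away with 51.37 in the Hira-null day 15 list. After it, peaks at 13.9, 163, 13.8 and 13.6 kb in the same order scored 135.19, 81.44, 153.02 and 144.41. Inside, 30 of the 31 Hira-null day 15 peaks lay within 209 kb, from Slc22a2 to the body of Airn, of which they covered 20.3%. The same span held 1 WT day 0 peak, 2 Hira-null day 0 peaks and 8 WT day 15 peaks. Plg had 1 peak in its window in WT day 15 and 0 in the other lists, Mas1 and Mrgprh shared 1 in WT day 0, and Pnldc1 had 0 in all 4.

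The functional partners of Igf2r were examined as lists, counted in the same gene windows. Among 17 other genes of the IGF axis (ligands, receptors, binding proteins and substrates), 8 had a peak in WT day 0, 2 in Hira-null day 0, 12 in WT day 15 and 3 in the Hira-null day 15 list. Igf2, which encodes the ligand cleared by IGF2R and is imprinted in the opposite sense, had 0, 0, 0 and 5 peaks in that order. Igf2bp1, which binds the Igf2 mRNA, had 6, 4, 18 and 2. Insr, the insulin receptor, had 13 peaks in WT day 15 and 0 in each of the others. At day 15, 2 of the 17 (11.8%, against 4.94% of coding genes) had more Hira-null than WT peaks and 12 had fewer. These 12 were all the list genes with a WT day 15 peak, and the share of coding genes with fewer is not given here. The shares of the list with a peak were 47.1%, 11.8%, 70.6% and 17.6%, against 33.6%, 18.9%, 37.1% and 13.3% of coding genes.

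Of 17 genes of the mannose 6-phosphate pathway, which tags and sorts lysosomal enzymes, 8, 2, 7 and 2 had a peak in the same order (47.1%, 11.8%, 41.2% and 11.8%, against 33.6%, 18.9%, 37.1% and 13.3% of coding genes). The other mannose 6-phosphate receptor, M6pr, had 2, 2, 2 and 0. Ap1g1, a subunit of the adaptor that packs these receptors into vesicles, had 6, 0, 25 and 0. The cathepsin genes Ctsb and Ctsl, whose products are cargo of this route, had 1 Hira-null day 15 peak each. In 1 gene of the list (5.88%, against 4.94% of coding genes) there were more Hira-null than WT day 15 peaks. Among 14 other Slc22 transporters 3, 3, 6 and 3 had a peak (21.4%, 21.4%, 42.9% and 21.4%).

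Other imprinted genes were the list with the highest share of genes with a Hira-null day 15 peak, 27 of 52 found (51.9%, against 13.3% of coding genes). In WT day 15 there were 28 (53.8%, against 37.1%), in WT day 0 20 (38.5%, against 33.6%) and in Hira-null day 0 19 (36.5%, against 18.9%). In 19 of the 52 (36.5%) there were more Hira-null than WT day 15 peaks, where 4.94% of coding genes had more. In 17 there were fewer, for which the share of all coding genes is not given here. The list includes Airn, and without it the counts were 26 of 51 and 18 of 51. Several of its genes are neighbours that share peaks, and imprinted genes had already been noticed in these data when the list was made, so it is no independent evidence. Besides Airn, with 18 Hira-null day 15 peaks, Kcnq1 had 10, Peg3 10 and Ddc 10, against 6, 4 and 21 in WT day 15.

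**Figure D5:**
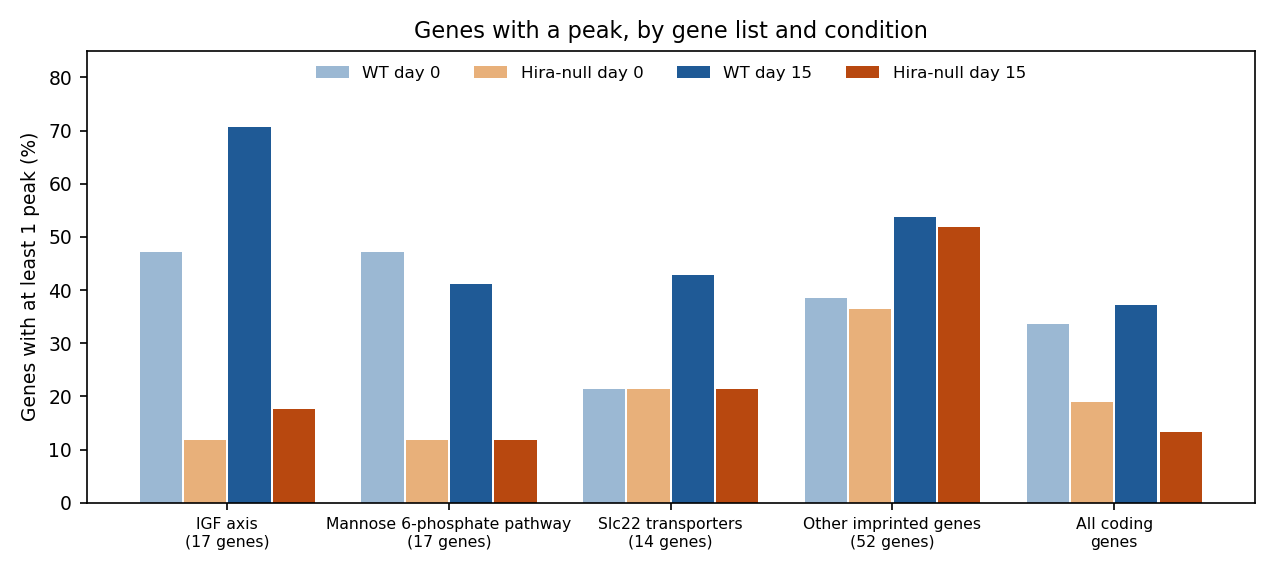
Percent of genes with at least 1 H3.3 peak in the gene window for 4 gene lists and all coding genes, by condition, without error bars as each condition has 1 library. In Hira-null day 15 the other imprinted genes reach 51.9%, and all coding genes 13.3%.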

How the data were processed

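H3.3-HA ChIP-seq was analysed from 1 deposited peak list per condition (4 ChIP libraries, with 4 input libraries that have no list of their own). Per the study's methods, the authors aligned reads to mm9 with Bowtie, removed duplicates with Samtools and called peaks with MACS 1.4.2. The deposited score in the fourth column is that of the authors' peak caller, with a lowest value of 50. Whether the input served as control is not given in the sources used here. Groups came from the sample labels.

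Peaks were compared with the mm9 (NCBIM37) genome and GENCODE M1 genes (22367 coding genes). Starts were moved from BED to 1-based positions. Overlap was at least 1 bp. A gene window ran from 10 kb upstream of the start to 200 bp past the end. Domains joined peaks up to 12 kb apart. The autosomes and X were divided into windows of 600 kb so that the region is exactly 1 of them. The overlap code was tested on simulated data and against bedtools 2.31.1. Python 3.11.15, numpy 2.4.6, pysam 0.24.0 and matplotlib 3.10.9 were used. Promoter sequences in RefSeq (GRCm38.p6) of Airn, Igf2r, Slc22a2 and Slc22a3 were found unchanged in the region. A planned share of masked repeats could not be computed, as this genome copy marks none, and the count of distinct words of 4 bases was added after the sequences had been seen.

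The members and gene lists were chosen with earlier results of these data known. Named genes were taken from the 3 members, the genes whose window touches the region and, in each of 4 lists, at most 6 genes with the most Hira-null day 15 peaks. Named peaks were those of the region, with the 5 highest-scoring of Hira-null day 15, and other peaks of that list were named for their place after their values were seen. Alternatives were a score of at least 100, lists of equal length (7332 peaks), an overlap of 50%, lists widened by 1 kb, merging of peaks less than 1 kb apart, the gene body alone, other region limits and windows of 1 Mb. Values of some single genes are not reported here. No p-value was computed, since each condition has 1 library and read depth is unknown.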

Additional observations from a re-analysis of the deposited data

How the results depend on the processing

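No paired analysis was possible because each condition has 1 ChIP library. Of 100 alternative values, 59 stayed within 1.5 times the value given and 41 moved beyond it, and the cause was not tested except where fewer peaks entered by construction. With a score of at least 100 in every list, the region held 1 peak in WT day 0, 3 in WT day 15 and 16 in the Hira-null day 15 list, the Hira-null minus WT difference was 13 at day 15 and 2 at day 0, and the rank of the window was 3. With lists of equal length, the region held 0 peaks in WT day 0, 1 in Hira-null day 0 and 1 in WT day 15, and the difference at day 0 was 1. With peaks less than 1 kb apart merged, the day 15 difference was 11. From Slc22a3 to Igf2r with 10 kb on each side there were 1, 7 and 19 peaks in WT day 0, WT day 15 and Hira-null day 15. With windows of 1 Mb the rank was 2.

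At a score of at least 100, the peaks without one of the other genotype numbered 1 at day 0 and 3 at day 15 in WT, and those without one of the other day 1 in WT day 0, 3 in WT day 15 and 14 in the Hira-null day 15 list. With lists of equal length, those without the other genotype numbered 0 in WT day 0, 1 in Hira-null day 0 and 0 in WT day 15, and those without the other day 0 in WT day 0, 0 in Hira-null day 0 and 1 in WT day 15. The mannose 6-phosphate list had 0 genes with a Hira-null day 15 peak at a score of at least 100, and the Slc22 list had 1 by gene body. Igf2r itself had 4 Hira-null day 15 peaks at a score of at least 100, against 2 in WT day 15. Read depth, mappability, the input control and copy number of the region in either line were not analysed here, and 1 library per condition gives no error for any count.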
